A study of Homo sapiens with 4 samples.

Results

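The genes described here are the ZNF genes of chromosome 19, human genes named ZNF and a number that encode zinc finger proteins. They were taken from the deposited gene count table as every gene on chromosome 19 whose current symbol is ZNF followed by digits, with a letter suffix allowed and pseudogenes left out. This gave 247 genes of the 58233 listed, 50 in band 19p13, 33 in 19p12, 163 in 19q13 and 1, ZNF536, between them. By Start, the 19p13 genes ran from ZNF554 at 2819874 to ZNF253 at 19865886, the 19p12 genes from ZNF93 at 19900913 to ZNF254 at 24033405, and the 19q13 genes from ZNF507 at 32345594 to ZNF446 at 58474017 (GRCh38).

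RNA was sequenced from the established breast epithelial cell line MCF10AT, a derivative of MCF10A with an HRAS G12V transgene. There were 4 libraries in 2 groups, 2 of the genotype labelled Bromo+/- and 2 labelled Non-target control, all grown in the same medium, whose additives included hydrocortisone, cholera toxin, insulin, horse serum and EGF. The labels describe lentiviral shRNA transduction with puromycin selection for stable knockdowns, but the genotype field of these samples names no shRNA, and what Bromo+/- alters is not spelled out. The series is about EP300, the gene of the acetyltransferase p300. Both columns of a group share a number in their names, so each group may be 1 clone, and no label says that the replicates were separate cultures. The p-values below therefore measure only the spread between these libraries, which may be technical.

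Most zinc finger proteins of this chromosome belong to the KRAB zinc finger family, which arose by repeated tandem duplication and sits in large clusters of neighbouring genes. Such a protein reads DNA with a row of C2H2 fingers and, through its KRAB domain, recruits the corepressor TRIM28, which brings the histone methyltransferase SETDB1 and heterochromatin proteins to the bound site. Many of them keep transposable elements silent, and their own genes are often covered by the same repressive chromatin. Their transcripts are usually scarce.

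The libraries held 11975396 and 10953756 counts (Bromo+/-) and 10835237 and 11884715 counts (control). EP300, on chromosome 22, stood at 121 and 126 CPM (counts scaled to library size and composition) in the Bromo+/- libraries and at 106 and 111 CPM in the control libraries, so it was not lower in Bromo+/- (log2 fold change 0.19, SE 0.06). The small rise passed with edgeR (adjusted p = 0.00701) but not with the DESeq2 Wald test (0.0639) or without control replicate 1 (0.162, in a range of 0.000105 to 0.162). Of 12 markers of mammary epithelium, 11 were tested and all 11 were lower in Bromo+/-, with summed levels of 1887 and 1799 CPM in Bromo+/- and 10682 and 10381 CPM in the controls. All 10 mesenchymal markers were higher, with summed levels of 6101 and 6285 CPM in Bromo+/- and 1936 and 1821 CPM in the controls. The 6 leukocyte markers summed to 2.77 and 2.13 CPM in Bromo+/- and 11.3 and 12.5 CPM in the controls, almost all of it CORO1A, and CD3E had no count. The 5 endothelial markers summed to 3.75 and 4.34 CPM in Bromo+/- and 4.58 and 3.03 CPM in the controls, and VWF had no count. The part of this shift from epithelial to mesenchymal markers in the zinc finger results was not tested.

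Many ZNF genes of chromosome 19 were without any count, and most of the others were counted at a low level, 144 of the 162 that were tested lying below the median RPKM (CPM per kilobase of exon) of all tested genes. No count was found in any library for 59 of the 247 genes (23.9%), which allows a level of up to 0.0658 CPM over all 4 libraries together against a limit of 3 counts. Of all 58233 genes listed 55.7% had no count. The share was 49.3% in the 2688 genes of chromosome 19 outside the zinc finger families. Pseudogenes were not left out of these 2 backgrounds, whose median exonic lengths were 947 and 1240 bases, against 4923 in the set. They are therefore not a like comparison. Among the 264 ZNF genes of other chromosomes the share without a count was 11.4%, lower than in the set. A further 26 genes had some counts, too few to test, and 162 (65.6%) were tested. Of the 162 tested genes, 42 were higher in Bromo+/-, 18 were lower and 102 did not pass (edgeR quasi-likelihood test, adjusted p under 0.05 over all genes). The share past the threshold was 37.0%, against 53.5% of all 13179 genes tested. It was 53.6% of the 2411 tested genes that lay between the lower and upper quartile of the set's own level (2.21 to 4.06 log2 CPM). The 37.0% also covers genes of the set below and above that range, so the levels are matched only roughly. The share within the range is not given for the set. Of those 2411 genes 738 (30.6%) were higher and 554 lower, and over all tested genes 26.4% were higher and 27.1% lower, while of the 162 ZNF genes 25.9% were higher and 11.1% lower. The median log2 fold change of the 162 genes was 0.08, against 0.08 over the same 2411 genes and 0.01 over all tested genes. Of the 162 genes 11 passed with at least a 2-fold difference, 10 higher and 1 lower. Over all 13179 tested genes 1973 (15.0%) did so, 980 higher and 993 lower. Among the 2411 genes 487 did so, 238 higher and 249 lower.

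Fewer calls were made with the DESeq2 Wald test, 27 higher and 8 lower. With library size alone as the scaling, which shifts the median of all genes by 0.08 on the log2 scale, 57 were higher and 14 lower. ZNF genes of other chromosomes had 64 higher and 26 lower in the main fit. They had 27 and 13 with the DESeq2 Wald test, and 91 and 21 with library size alone. The share of all tested genes called under these settings is not given here. In bulk RNA, fewer cells with a transcript and less transcript per cell cannot be told apart. The 247 genes together took 0.232% and 0.237% of the raw counts in the Bromo+/- libraries and 0.209% and 0.215% in the control libraries. Unlike the CPM levels, these shares are not scaled for library composition. The normalization factors left out were 1.03 and 1.03 for Bromo+/- and 0.968 and 0.975 for the controls. The groups did not overlap, but with 2 libraries each the exact two-sided permutation test cannot go below 0.333, the p it gave.

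**Figure D1:**
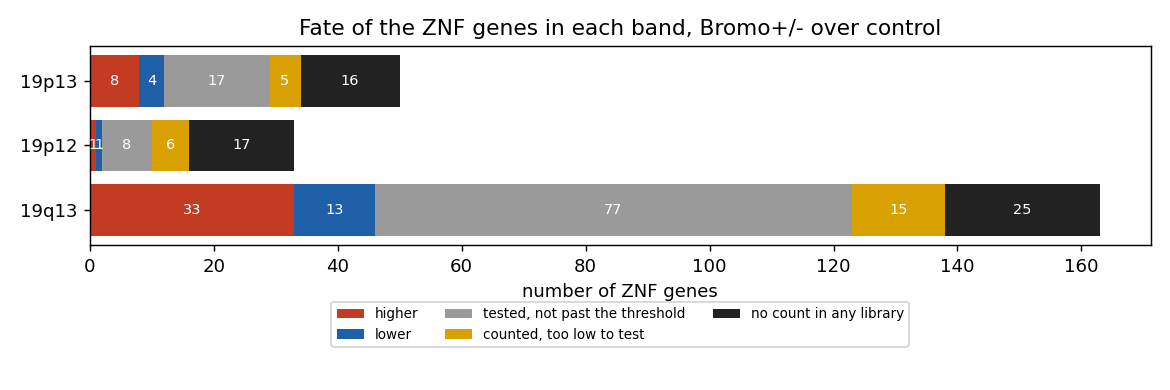
Number of ZNF genes in each band of chromosome 19 (horizontal axis), split by outcome in the comparison of Bromo+/- with Non-target control. In 19p12, 17 of 33 genes had no count in any library, against 16 of 50 in 19p13 and 25 of 163 in 19q13.

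The bands differed in how many of their genes were counted at all. In 19p12, home of the primate-expanded ZNF91 group, 17 of 33 genes (51.5%) had no count in any library, 6 had too few to test and 10 were tested. In 19p13 16 of 50 (32.0%) had no count and 29 were tested, and in 19q13 25 of 163 (15.3%) had no count and 123 were tested. Among the 264 ZNF genes of other chromosomes 30 (11.4%) had no count. The genes without a count were often neighbours. The longest run took in 10 genes in a row of 19p12, from ZNF43 to ZNF728 (21804949 to 23003176), and a second run of 5, from ZNF682 to ZNF626, lay in the same band. In 19q13, runs of 5 went from ZNF160 to ZNF677 and from ZNF667 to ZNF835, and a run of 4 from ZNF790 to ZNF568. How reads that map to several near-identical copies were counted is not given in the sources used here, so a zero in these families can also be a loss of such reads.

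**Figure D2:**
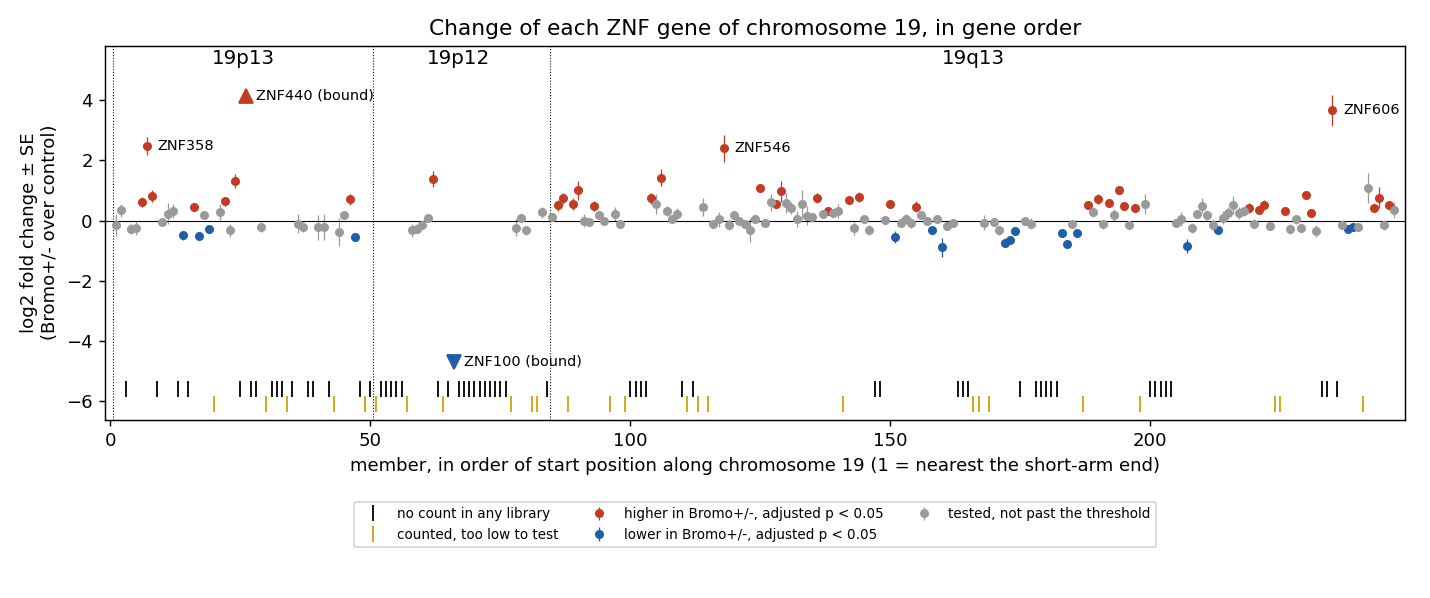
Log2 fold change of Bromo+/- over Non-target control (vertical axis, error bars are the SE of the fit) for each tested ZNF gene, in order along chromosome 19 (horizontal axis, rank by start). Triangles are bounds for ZNF440 and ZNF100, which had no count in the control or the Bromo+/- libraries; black and yellow ticks are genes with no count and genes too low to test, and the ticks are densest in 19p12.

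A pair of genes had counts in a single group. ZNF440, a KRAB zinc finger gene of 19p13 (11814284 to 11835201, plus strand), had 28 and 29 counts in the Bromo+/- libraries and 0 and 0 in the control libraries. It was at least 17.8-fold higher in Bromo+/- against 3 counts over the control group. ZNF100, a KRAB gene of 19p12 (21722766 to 21767628, minus strand), went the other way, with 0 and 0 counts in the Bromo+/- libraries and 34 and 38 in the control libraries. It was at least 25.7-fold lower in Bromo+/- against 3 counts over the Bromo+/- group. Both genes reached the test only through the group with counts and were picked for having none in the other group. Their adjusted p of 1.02e-14 and 4.26e-19 (edgeR) is therefore no separate support. Neither gene shares exons with another counted gene.

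Further genes came close to this pattern and are named after their values were seen. ZNF606, in 19q13.43, had 32 and 25 counts in the Bromo+/- libraries and 0 and 4 in the control libraries (log2 fold change 3.66, SE 0.52). ZNF546, in 19q13.2, had 28 and 24 counts in the Bromo+/- libraries and 3 and 6 in the control libraries (2.40, SE 0.44). Both were past the threshold under every alternative run. ZNF681, in 19p12, was too low to test, with 0 and 1 counts in the Bromo+/- libraries and 10 and 7 in the control libraries, which puts the controls 18.2 times higher (95% exact binomial interval 2.85 to 760). These genes were picked for the distance between the groups. The calls of ZNF606 and ZNF546 under alternatives that reuse the same libraries are therefore no separate support.

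The neighbours of ZNF440 and ZNF100 did not all follow them. ZNF441, next to ZNF440 on the side of the short-arm end, rose, with 72 and 96 counts in Bromo+/- and 34 and 29 counts in the controls (log2 fold change 1.32, SE 0.22), while ZNF491, between them, and ZNF439, beyond ZNF440, had no count in any library. In 19p12, ZNF708, a few genes before ZNF100, rose to 4.65 and 5.14 CPM in Bromo+/-, against 1.81 and 1.90 CPM in the controls (log2 fold change 1.39, SE 0.26). It was the only gene of that band past the threshold in the upward direction, as ZNF100 was in the downward one. The other 8 tested genes of 19p12 did not pass.

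The promoter windows of ZNF440, its uncounted neighbour ZNF439, ZNF100 and ZNF606 are shown because these genes stood at or near 0 in at least 1 group. Each window runs from 250 bases before to 50 bases after the RefSeq start, on GRCh38.p14, written 5′ to 3′ on the gene's strand: chr19:11814023-11814322 (plus) for ZNF440, chr19:11848476-11848775 (plus) for ZNF439, chr19:21767530-21767829 (minus) for ZNF100 and chr19:58002771-58003070 (minus) for ZNF606. Capitals mark CG dinucleotides, the bases at which human DNA is methylated.
ZNF440: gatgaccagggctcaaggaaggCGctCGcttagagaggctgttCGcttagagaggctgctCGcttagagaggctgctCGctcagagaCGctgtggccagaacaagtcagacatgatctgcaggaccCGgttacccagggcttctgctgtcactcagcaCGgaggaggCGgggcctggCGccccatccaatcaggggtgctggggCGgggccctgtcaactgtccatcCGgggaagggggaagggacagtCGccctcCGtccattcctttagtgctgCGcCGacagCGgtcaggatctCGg
ZNF439: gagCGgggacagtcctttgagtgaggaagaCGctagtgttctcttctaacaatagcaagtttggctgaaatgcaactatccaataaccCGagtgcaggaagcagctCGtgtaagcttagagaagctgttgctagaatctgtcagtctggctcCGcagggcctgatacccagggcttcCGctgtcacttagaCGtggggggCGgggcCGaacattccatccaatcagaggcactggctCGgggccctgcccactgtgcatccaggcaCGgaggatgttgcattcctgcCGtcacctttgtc
ZNF100: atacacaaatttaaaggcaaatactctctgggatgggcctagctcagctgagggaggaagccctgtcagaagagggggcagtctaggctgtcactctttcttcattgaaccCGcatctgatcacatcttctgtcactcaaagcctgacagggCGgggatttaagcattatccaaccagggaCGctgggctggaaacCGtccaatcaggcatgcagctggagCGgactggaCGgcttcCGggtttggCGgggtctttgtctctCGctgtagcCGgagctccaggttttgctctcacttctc
ZNF606: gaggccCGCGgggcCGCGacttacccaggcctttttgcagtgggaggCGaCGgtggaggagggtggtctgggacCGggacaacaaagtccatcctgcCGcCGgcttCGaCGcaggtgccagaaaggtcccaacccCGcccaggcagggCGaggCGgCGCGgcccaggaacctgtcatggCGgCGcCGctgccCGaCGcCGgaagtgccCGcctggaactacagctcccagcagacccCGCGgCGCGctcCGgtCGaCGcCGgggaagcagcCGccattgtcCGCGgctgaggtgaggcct
The ZNF440 window held 18 CG dinucleotides, that of ZNF439 12, that of ZNF100 10 and that of ZNF606 34.

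RefSeq windows of 300 bases were found by symbol for 216 of the 247 genes. CG counts differed by band. In 19p12 the 27 windows held 8 to 16 CG (median 10), in 19p13 the 46 windows held 8 to 34 (median 18) and in 19q13 the 142 windows held 2 to 49 (median 23). The 27305 windows of the whole table held 0 to 77 (median 14). The medians were 10, 18 and 22 in the 3 bands when only genes with a RefSeq start within 500 bases of the deposited 5′ end were kept. Within a band, CG counts did not set the genes without a count apart in the same way. In 19p12 the median was 10 in the genes without a count and 10 in the tested genes. In 19p13 it was 16 and 19.5, and in 19q13 it was 26 and 22.5. Windows of tested genes that were higher in Bromo+/- had a median of 22, those that were lower 19.5, and those that did not pass 20. The letters TATAAA, searched on both strands, were in 4 of the 216 windows (1.85%) and in 3264 of all 27305 windows.

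**Figure D3:**
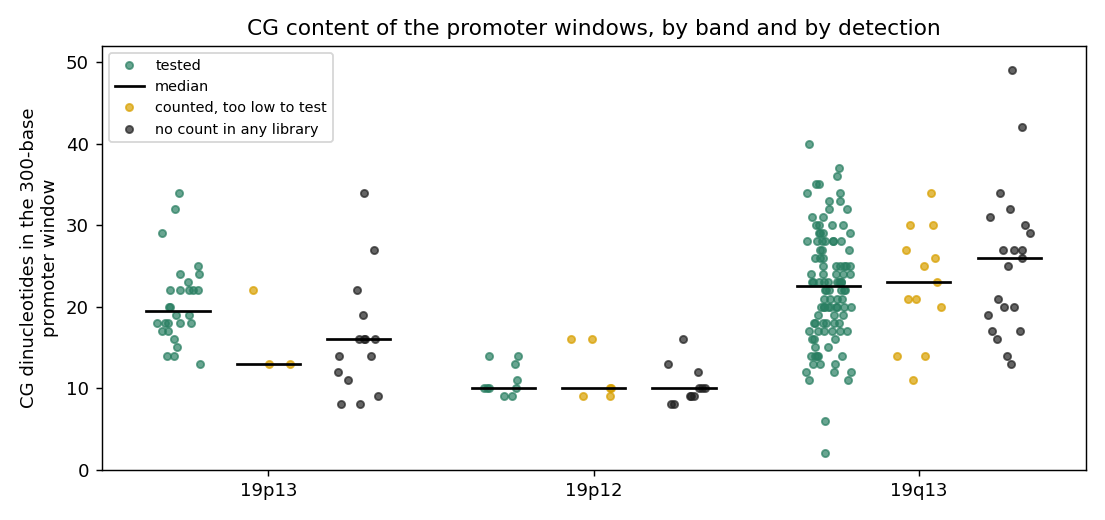
CG dinucleotides in the 300-base RefSeq promoter window (vertical axis) of each ZNF gene, by band and by whether the gene was tested, counted but too low to test, or without any count (colours; horizontal bars are medians, horizontal scatter is random). The 19p12 windows all lie between 8 and 16, whatever the detection.

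Among genes that averaged 1 log2 CPM or more, ZNF358, in 19p13.2 (7515292 to 7521026), had the largest rise, with 6.77 and 3.90 CPM in Bromo+/- and 1.24 and 0.692 CPM in the controls (log2 fold change 2.48, SE 0.30, adjusted p = 1.6e-13, edgeR). Replicate 1 of Bromo+/- was well above replicate 2. ZNF585B, in 19q13.12, rose to 4.32 and 3.72 CPM in Bromo+/-, against 1.53 and 1.47 CPM in the controls (1.42, SE 0.28). It has a close tandem copy, ZNF585A, which had 28 and 19 counts in Bromo+/- and 14 and 16 in the controls and did not pass, and counts may be split between them.

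The next rises were smaller. ZNF428, of 19q13.31, rose to 22.6 and 16.7 CPM in Bromo+/-, against 10.1 and 8.65 CPM in the controls (log2 fold change 1.08, SE 0.13). ZNF580, a small protein with few fingers, rose to 29.3 and 23.9 CPM, against 12.2 and 14.3 CPM in the controls (1.00, SE 0.11). ZNF814, a KRAB gene of 19q13.43, rose to 16.5 and 17.6 CPM, against 9.93 and 8.82 CPM in the controls (0.86, SE 0.14). Groups that lay apart were a condition for naming these genes. ZNF792 rose by 1.01 (SE 0.31), with 41 and 26 counts in Bromo+/- and 14 and 17 in the controls. Its call ended with the DESeq2 Wald test and without Bromo+/- replicate 1 (adjusted p = 0.122 and 0.164, in a range of 0.00169 to 0.164). ZNF627, in 19p13.2, rose by 0.65 (SE 0.15), to 11.4 and 13.6 CPM, against 7.74 and 8.13 CPM in the controls. Exons of ZNF585B, ZNF428, ZNF580, ZNF814 and ZNF627 overlap those of another counted gene, so their own levels are uncertain.

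Apart from ZNF100, no tested gene of the set fell by 2-fold. ZNF836, in 19q13.41, had 18 and 15 counts in Bromo+/- and 29 and 28 in the controls (log2 fold change -0.88, SE 0.32), a call that ended with the DESeq2 Wald test and without either Bromo+/- replicate or control replicate 1 (adjusted p of up to 0.181, the lowest over the alternatives being 0.0124). ZNF460, in 19q13.43, fell to 3.34 and 3.01 CPM in Bromo+/-, against 5.73 and 5.71 CPM in the controls (-0.84, SE 0.22). Its exons overlap those of another counted gene, so its own level is uncertain. ZNF525 fell to 10.5 and 9.30 CPM, against 15.6 and 18.1 CPM in the controls (-0.76, SE 0.13).

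ZNF121, a more abundant gene of 19p13.2, fell to 43.1 and 45.4 CPM in Bromo+/-, against 60.3 and 65.4 CPM in the controls (log2 fold change -0.51, SE 0.08, adjusted p = 1.54e-09, edgeR). The nearby gene ZNF562, whose exons overlap those of ZNF561-AS1, fell by 0.29 (SE 0.09), and ZNF101, in 19p13.11, by 0.55 (SE 0.14). ZNF577, in 19q13.41, fell by 0.54 (SE 0.18) and shares exons with ZNF649. The calls for ZNF562 and ZNF577 ended with the DESeq2 Wald test and without a control replicate (replicate 2 for ZNF562, replicate 1 for ZNF577), and that for ZNF101 without control replicate 1 (adjusted p = 0.0534, edgeR, in a range of 0.000152 to 0.0534).

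**Figure D4:**
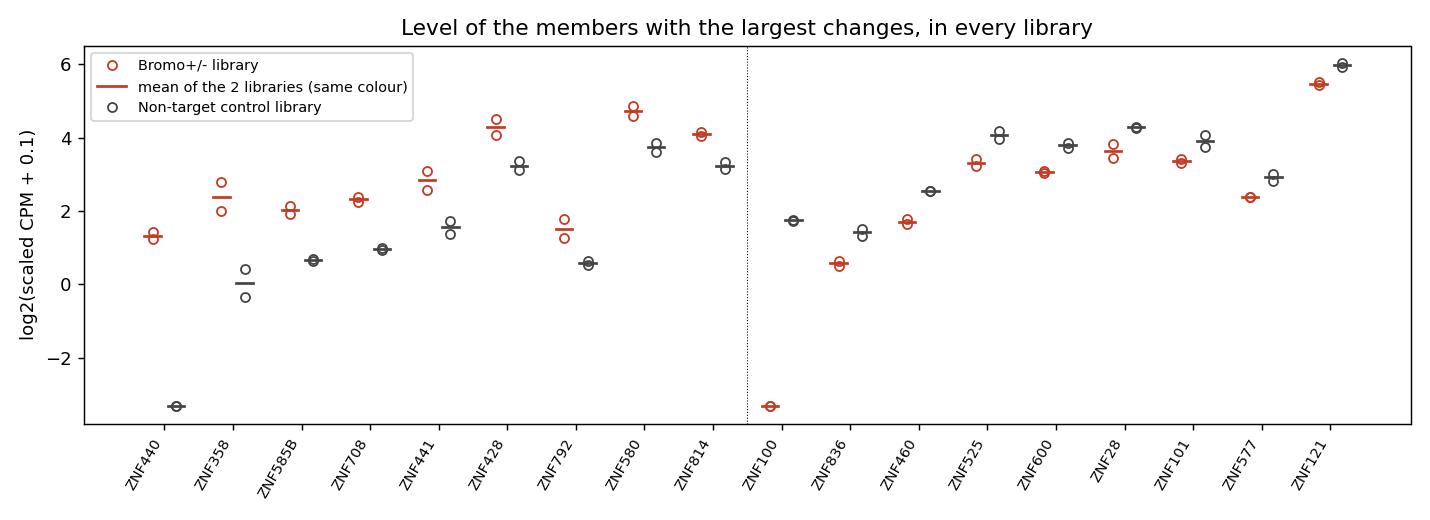
Level of 18 ZNF genes in every library, as log2(scaled CPM + 0.1), with the 9 higher genes left of the dotted line and the 9 lower genes right of it. Open circles are single libraries and bars the mean of 2; ZNF440 has no count in the controls and ZNF100 none in Bromo+/-, and the genes were chosen from those whose groups do not overlap.

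Some clusters are described as stretches picked after the values were seen. Of 21 pairs of neighbouring tested genes in a band that both passed, 15 had the same direction, 3 of them pairs that share exons, and 6 opposite directions. Neighbouring means the next tested gene of the set at any distance, with untested genes skipped. ZNF333 at 14689801 and ZNF101 at 19668796 form such a pair. No test was made of whether neighbours move alike more than other genes of the set, where 42 calls were higher and 18 lower. The cluster of 19q13.31 from ZNF404 to ZNF180 (43872363 to 44500524) held 19 genes, 18 of them tested, of which 6 rose, none fell and 17 had a fold change above 0. The share past the threshold, all of it higher, was 33.3%, where 26.4% of all tested genes were higher. A fold change above 0 was found in 95 of the 162 tested genes of the set and in 6684 of all 13179. In it ZNF45 rose to 27.5 and 32.5 CPM in Bromo+/-, against 20.3 and 20.3 CPM in the controls (log2 fold change 0.56, SE 0.10). ZNF112 rose to 13.9 and 16.0 CPM, against 9.07 and 9.51 CPM in the controls (0.68, SE 0.14). ZNF225 and ZNF229 rose by 0.75 and 0.79. These 4 calls held under every alternative run, while those of ZNF221 and ZNF226 ended with the DESeq2 Wald test and without single libraries (Bromo+/- replicate 1 or control replicate 1 for ZNF221, replicate 2 of either group for ZNF226).

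The short cluster of 19q13.11 from ZNF302 to ZNF792 (34677639 to 34964049) held 5 genes, of which 4 were tested and all 4 rose, ZNF302 by 0.51, ZNF181 by 0.74, ZNF30 by 0.55 and ZNF792 by 1.01 on the log2 scale, where 26.4% of all tested genes were higher. Each of these calls ended under some alternative. Those of ZNF302, ZNF30 and ZNF792 ended with the DESeq2 Wald test, that of ZNF181 without control replicate 1 (adjusted p = 0.0626, edgeR, in a range of 5.47e-05 to 0.0626), that of ZNF302 also without Bromo+/- replicate 2 or control replicate 1, and that of ZNF30 also without replicate 2 of either group. Near the end of 19q13.42, between ZNF579 and ZNF581, 4 of 6 tested genes rose (66.7%, against 26.4% higher over all tested genes), ZNF579 (0.73), ZNF865 (0.59), ZNF580 and ZNF581 (0.48). Exons of ZNF580, ZNF581 and CCDC106 overlap, so the rises of this pair cannot be taken as separate measurements.

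The stretch from ZNF600 to ZNF761 (52764195 to 53458261) in 19q13.41 and 19q13.42 leaned lower. It held 15 genes, 6 without any count and 9 tested, and of these 6 fell, none rose and 3 did not pass, where 27.1% of all tested genes were lower. ZNF600 fell, with 99 and 96 counts in Bromo+/- and 138 and 166 counts in the controls (log2 fold change -0.74, SE 0.15). ZNF28 fell, with 133 and 158 counts in Bromo+/- and 201 and 227 counts in the controls (-0.65, SE 0.12), and ZNF761 fell to 31.2 and 32.3 CPM, against 41.1 and 43.3 CPM in the controls (-0.41, SE 0.09). ZNF525, ZNF845 (-0.41) and ZNF468 (-0.34) were the other falls, and ZNF28 shares exons with ZNF468, as ZNF761 does with TPM3P9. The call for ZNF845 ended with the DESeq2 Wald test, and that for ZNF468 with it, with upper quartile scaling, with library size alone and without Bromo+/- replicate 1 or either control replicate (adjusted p of up to 0.421, the lowest being 0.00246). Just beyond it, ZNF331, an imprinted gene, rose to 21.8 and 20.7 CPM, against 15.6 and 14.4 CPM in the controls (0.51, SE 0.12).

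By band, the calls over tested genes were 8 higher and 4 lower of 29 in 19p13 (41.4%), 1 higher and 1 lower of 10 in 19p12 (20.0%), and 33 higher and 13 lower of 123 in 19q13 (37.4%), against 53.5% of all tested genes (26.4% higher and 27.1% lower). The median log2 fold changes were -0.04, -0.18 and 0.12. The median of 19p13 turned positive with upper quartile scaling, with library size alone, with the CPM filter and when either Bromo+/- replicate or control replicate 1 was left out, and no test of a difference between bands was made. With band limits at the widest gaps between genes the median was 0.07 in 19p13 and -0.23 in 19p12, and 27.3% of the tested 19p12 genes were past the threshold. Average levels also differed, with medians of 2.52, 2.89 and 3.37 log2 CPM for the tested genes of 19p13, 19p12 and 19q13.

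Per length of transcript, ZNF146, which consists almost wholly of zinc fingers and has no KRAB domain, stood above all others. Its level was 53.9 and 58.8 RPKM in Bromo+/- and 57.6 and 57.3 RPKM in the controls, with overlapping groups and a log2 fold change of -0.03 (SE 0.05). ZNF581 followed with 21.1 and 20.1 RPKM in Bromo+/- and 14.6 and 15.0 RPKM in the controls. ZNF787 had 12.1 and 11.1 RPKM in Bromo+/- and 12.7 and 12.8 RPKM in the controls. No other gene of the set averaged above 10 RPKM over the 4 libraries. Exons of ZNF146 overlap those of ZNF565, and exons of ZNF581 those of ZNF580 and CCDC106, so their own levels are uncertain. The median tested gene of the set averaged 1.78 RPKM, against 5.33 RPKM for all tested genes.

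Some genes of the set have a known role in silencing transposable elements. ZNF91, a repressor of SVA elements, had 163 and 145 counts in Bromo+/- and 121 and 149 counts in the controls (log2 fold change 0.09, SE 0.14), and the scaled levels of the groups overlapped. ZNF93, a repressor of LINE-1 elements, had 1 count in all, in a control library. ZNF649 (-0.07, SE 0.15) and ZNF808 (-0.08, SE 0.25) did not pass either. ZNF274, which brings SETDB1 to the 3′ ends of zinc finger genes, fell to 32.9 and 31.8 CPM, against 40.4 and 38.9 CPM in the controls (-0.29, SE 0.09). Both Bromo+/- values lay below both control values, but the DESeq2 Wald test did not call it (adjusted p = 0.0587, in a range of 0.00198 to 0.0587).

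ZNF420, known as APAK and described as a brake on p53, rose to 8.40 and 8.95 CPM in Bromo+/-, against 4.68 and 5.62 CPM in the controls (log2 fold change 0.74, SE 0.18). ZNF350, a partner of BRCA1 also called ZBRK1, did not pass (-0.06, SE 0.17), nor did ZNF224, a repressor of aldolase A (0.11, SE 0.16), or ZNF675, an inhibitor of TRAF6 signalling (-0.32, SE 0.16). ZNF431 (0.07), ZNF85 (-0.32) and ZNF44 (-0.22) did not pass, although ZNF44 did without Bromo+/- replicate 2 (adjusted p = 0.0204, edgeR). ZNF471, whose promoter is often methylated in tumours, ZNF43 and ZNF536, a regulator of neuronal differentiation, had no count in any library. ZNF154, another gene often methylated in tumours, had 5 and 8 counts in Bromo+/- and 6 and 11 in the controls. ZNF382 had 7 and 3 counts in Bromo+/- and 0 and 2 in the controls, a ratio of 4.68 with a 95% exact binomial interval of 0.997 to 43.9. Neither could be tested. Exons of ZNF382 overlap those of ZNF529, so its own level is uncertain.

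The machinery through which these proteins act was measured in a list of 38 corepressor and heterochromatin genes, all tested. Of these 14 rose, 5 fell and 19 did not pass (50.0% past the threshold, against 53.5% of all tested genes), with a median log2 fold change of 0.08. TRIM28, the corepressor itself, had 810 and 732 CPM in Bromo+/- and 771 and 751 CPM in the controls, with overlapping groups (0.02, SE 0.05), and SETDB1 did not pass (-0.18, SE 0.09). ATF7IP2, a relative of the SETDB1 partner ATF7IP, had 42 and 50 counts in Bromo+/- and 0 and 3 in the controls, a ratio of 28.7 (95% exact binomial interval 9.51 to 142). The de novo DNA methyltransferase genes DNMT3A and DNMT3B rose, while DNMT1, the maintenance enzyme, named after its values were seen, did not pass (0.04, SE 0.05). DNMT3A had 147 and 136 counts in Bromo+/- and 49 and 64 counts in the controls (1.23, SE 0.17), and DNMT3B 7.17 and 6.64 CPM in Bromo+/- and 2.58 and 3.20 CPM in the controls (1.25, SE 0.22). ATRX, a chromatin remodeller of heterochromatin, rose by 0.50, and CHD3 and MTA1, of the NuRD deacetylase complex, by 0.36 and 0.42. The falls were DAXX (-0.28), HDAC2 (-0.16), ATF7IP (-0.15), MORC2 (-0.17) and MORC3 (-0.26), named after their values were seen. With upper quartile scaling 1 gene of the list was lower, and likewise 1 with library size alone.

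Other zinc finger genes were read beside the set. On chromosome 19, 16 genes carry symbols of the ZFP, ZSCAN, ZIM, ZIK or PEG3 kind, of which 7 had no count, 5 were tested, ZFP30 (log2 fold change 0.37) and ZSCAN5A (0.92) rose and ZFP36 (-0.67), an mRNA decay factor with a different kind of finger, fell. Of 264 ZNF genes of other chromosomes 215 were tested, and 64 were higher and 26 lower (41.9%), with a median log2 fold change of 0.14. Higher genes made up 70.0% of the calls in the chromosome 19 set, 71.1% in the ZNF genes of other chromosomes, 57.1% in genes at the level of the chromosome 19 set and 49.4% over all tested genes. In the main fit 25.9% of the set's tested genes were higher, about the share of all tested genes (26.4%), and 11.1% were lower, against 27.1%. Of the 2411 genes at roughly the set's level 738 (30.6%) were higher and 554 lower, so against these both shares of the set were smaller. With library size alone 57 genes of the set were higher and 14 lower. Higher genes then made up 80.3% of the calls in the set and 81.2% in the ZNF genes of other chromosomes. The split of all tested genes under that scaling is not given. The other genes of chromosome 19 had 201 higher and 193 lower of 705 tested (55.9%).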

How the data were processed

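Gene counts were read from 4 RNA-seq libraries of MCF10AT cells prepared with the TruSeq Stranded mRNA kit, per the labels' protocols. The deposited table gives the authors' raw counts for each Ensembl identifier, without normalization. Per the submitters' processing notes, STAR (version not given) aligned reads to GRCh38 and featureCounts 1.5.2 counted them. Not given in the sources used here are the annotation release, the strand setting and how reads with several map positions were treated. The deposited table also lists exon coordinates and the exonic length used for RPKM, which was computed here. Control columns carry the letters WT and were matched to Non-target control. Symbols came from a current name table (57392 identifiers) and GENCODE v29 (503), and 338 stayed unnamed. Bands followed GRCh38 cytogenetic limits by Start.

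Counts were tested in R 4.3.3 with edgeR 4.0.16 (filterByExpr, trimmed mean of M values, robust quasi-likelihood, 2 residual degrees of freedom), with Benjamini-Hochberg adjustment over 13179 genes at 0.05. The normalization factors lay between 0.968 and 1.03. The chi-square per degree of freedom was 2.44 within Bromo+/- and 1.56 within the controls, so each library was kept as a separate sample. A level of 3 counts is 0.245 to 0.287 CPM per library. Both floors and exact intervals reflect counting error alone. Fold changes are Bromo+/- over control unless a ratio says otherwise. The procedure was tested on simulated data. The members and lists were chosen with earlier results of these data known.

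Genes named are EP300 and TRIM28, then, among members that passed, had non-overlapping groups and averaged 1 or more in log2 CPM, the 8 largest rises, the 8 largest falls and, by smallest p in each band, 3 higher and 3 lower. Also named are the 3 members highest per length, members with no count in a single group, a list of well-studied members and 6 genes of the corepressor list. Alternatives were other scalings, filters, the DESeq2 1.42.0 Wald test, the replicate number as a block, each library left out and other band limits. The alternatives without members that share exons and the background at the members' level were chosen after seeing the data.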

Additional observations from a re-analysis of the deposited data

How the results depend on the processing

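Of the 60 calls among the ZNF genes of chromosome 19, 60 kept their direction and threshold with the size factors of DESeq2, 56 with upper quartile scaling, 56 with library size alone, 58 without the filter and 35 with the DESeq2 Wald test. Without single libraries 47 to 50 were kept, and 33 were kept under every alternative. The DESeq2 Wald test gave 27 higher and 8 lower over the set, 2 lower in 19p13, 25 (20 higher and 5 lower) in 19q13, 11 (9 higher and 2 lower) in the corepressor list, 1 higher among the other zinc finger families of chromosome 19 and 40 (27 higher and 13 lower) among the ZNF genes of other chromosomes. Without members that share exons, 10 of the set were lower. In 19p12 the lower genes were 2 without the filter and 2 with limits at the gaps. The falls of the corepressor list were 1 with upper quartile scaling and 1 with library size alone. The median log2 fold change with upper quartile scaling was 0.14 over the set, 0.0153 in 19p13 and 0.18 in 19q13, with library size alone 0.17, 0.0396 and 0.20, and with the CPM filter 0.0745 in 19p13. The cause was not tested, except that both scalings shift all genes (by 0.06 and 0.08) and that the set without shared exons holds fewer genes.

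With single libraries left out, the calls ranged from 5551 to 6641 over all genes, from 52 to 59 over the set (35 to 41 higher, 13 to 19 lower), from 1 to 2 for the lower genes of 19p12, from 12 to 20 in the corepressor list (9 to 17 higher, 3 to 6 lower), and from 1 to 2 for the higher genes of the other families. The medians ranged from 0.0545 to 0.14 over the set, from -0.0023 to 0.0938 in 19p13, from -0.26 to -0.0166 in 19p12 and from 0.12 to 0.17 in 19q13. The replicate numbers share nothing the labels name (correlation of deviations 0.0484), and with a replicate block 44 of the set were higher and 18 lower. Of 43 named genes that were tested none reversed. No difference could be read for the 59 members without a count and the 26 too low to test.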
